A study of Rattus norvegicus with 54 samples.

Results

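Complement and coagulation factors are plasma proteins, most of them made by hepatocytes, and 46 of their genes were followed here through late foetal and postnatal life of the Wistar rat. The members were chosen by name, as the components, cofactors and regulators of both cascades, and each was read on the probe set whose single gene symbol in the platform annotation is that of the member. Of the 46 genes, 42 had such a probe set, 1 each, among 15310 probe sets with 1 symbol for 14506 genes. *C2* and *Cfb* share 1 probe set that bears both symbols, and *C5* and *F9* have none under their own name in the annotation table, so these 4 genes are without values. The 42 genes fall into 11 classes by their place in the cascades.

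RNA of liver and of hind limb skeletal muscle was measured on Affymetrix Rat Gene 1.0 ST arrays, whose probes are spread over the exons of a transcript. Liver was sampled at foetal days F16, F20 and F22, at postnatal days P1 and P4 and in adult rats at P90, with 4 arrays each, and muscle at F16, F18, F20, F22, P1 and P4, with 5 arrays each. All animals were Wistar rats without any treatment, the foetuses were delivered by Caesarean section, and neither litter nor sex of the animals is given in the sources used here. The comparisons ask when, around birth, the genes of both cascades reach their postnatal level in liver, and whether the same genes move in muscle.

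Complement is a cascade of serine proteases and pore-forming proteins. It starts from antibody bound to C1q (classical pathway), from sugars bound to mannose-binding lectin (lectin pathway) or on the microbial surface itself (alternative pathway), converges on C3 and ends in the membrane attack complex. Coagulation runs from tissue factor and factor VII, or from the contact factors, through factor X and thrombin to fibrin, which factor XIII crosslinks and plasmin dissolves. Most of these proteins are secreted by hepatocytes, while C1q is chiefly a macrophage product and the A subunit of factor XIII comes from megakaryocytes and macrophages.

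Values are log2 after robust multi-array average (RMA), so that a difference of 1 is a 2-fold difference of signal. Liver values lay between 1.73 and 14.11 with array medians of 7.06 to 7.16, and muscle values between 2.33 and 14.53 with medians of 7.98 to 8.07. Tissues were normalised apart, and only changes within a tissue are compared. The array least like its group was P1 replicate 1 in liver, with a mean correlation of 0.985, and F22 replicate 5 in muscle, with 0.987. The 12 hepatocyte markers, *Alb* to *Apob*, were all above the liver median at every age, and the 11 measured muscle fibre markers were all above the muscle median at every age. On 9 muscle arrays (F16 replicates 1, 2 and 4, F18 replicate 4, F20 replicates 4 and 5, F22 replicate 2, P4 replicates 3 and 5), however, the hepatocyte markers averaged 8.34 to 9.28, against 6.85 to 8.06 on the other 21, and *Alb* (albumin) lay at 11.01 to 12.21, against 7.02 to 10.87. On 4 liver arrays (F16 replicate 4, F20 replicate 1, F22 replicates 1 and 4) the muscle fibre markers averaged 7.81 to 9.05, against 6.71 to 7.49 on the other 20. Both sets of arrays were kept, and values without them stand beside the liver changes and the comparisons of F16 with P4 whose call they changed.

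The members rose in liver before birth. Between F16 and F20, 31 of 42 rose and 1 fell at an adjusted p of at most 0.05 in limma, against 9.22% and 13.2% of all tested probe sets, and between F20 and F22, 37 rose and 0 fell, against 15.3% and 21.6%. The median member changed by 0.59 and 0.67 in these intervals, and the median of all probe sets by -0.04 and -0.02. Across birth, from F22 to P1, 15 rose and 3 fell (14.8% and 21.9% of all), with a median of 0.09, and 24 were not called. Between P1 and P4 9 rose and 1 fell (4.87% and 6.1%). Between P4 and P90 17 rose and 9 fell, with 28.8% and 27.1% of all probe sets called, a share that the members exceeded only in the rising direction.

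**Figure D1:**
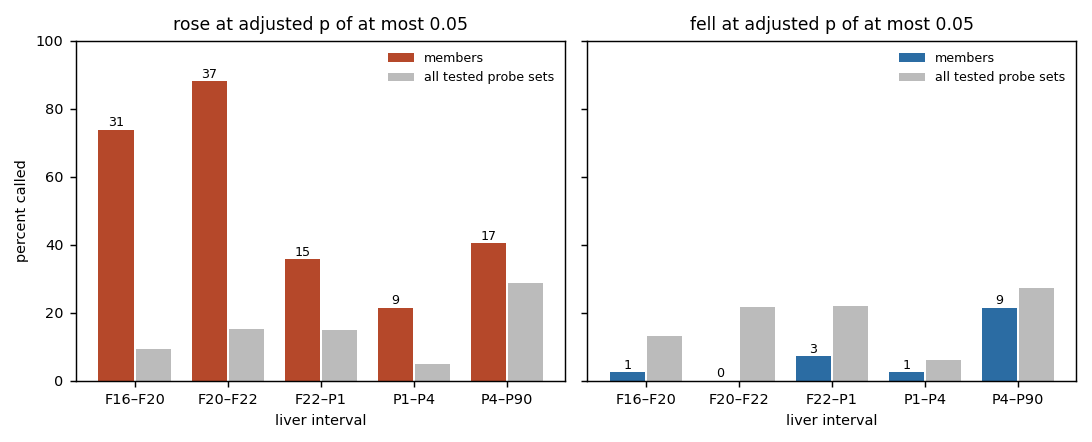
Share of the 42 members (coloured bars, with the number of members above each) and of all 15310 tested probe sets (grey bars) that rose (left) or fell (right) in each liver interval at an adjusted p of at most 0.05, in percent. The members stand above the grey bars on the left in every interval, with 31 and 37 of 42 in the intervals before birth. On the right they stand below the grey bars in every interval.

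Over the whole course, 40 members were called higher and 1 lower at P4 than at F16 (23.1% and 35% of all probe sets), with a median change of 1.75, and 39 were called higher and 1 lower at P90 than at F16 (37.9% and 35.5%), with a median of 1.71. The moderated F-test over the 6 ages called 42 of 42 members and 84.3% of all probe sets. F16 was the age of the lowest mean for 39 of 42 members, and the highest mean fell on P90 for 25, on P4 for 8, on F22 for 4, on P1 for 4 and on F16 for 1.

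The hepatocyte markers moved with the members, and 12 of 12 rose from F16 to P4. Their mean level over the arrays lay at 12.45 to 12.56 at F16, 12.84 to 12.90 at F20, 13.09 to 13.12 at F22, 13.18 at P1, 13.22 to 13.26 at P4 and 13.21 to 13.23 at P90. The 9 measured erythroid markers all fell from F16 to P4, with a mean of 12.12 to 12.22 at F16, 11.50 to 11.73 at F22, 10.47 to 10.74 at P4 and 7.11 to 7.29 at P90. Their part in the result was not tested, and in whole tissue fewer cells of a type and less RNA per cell cannot be told apart.

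**Figure D2:**
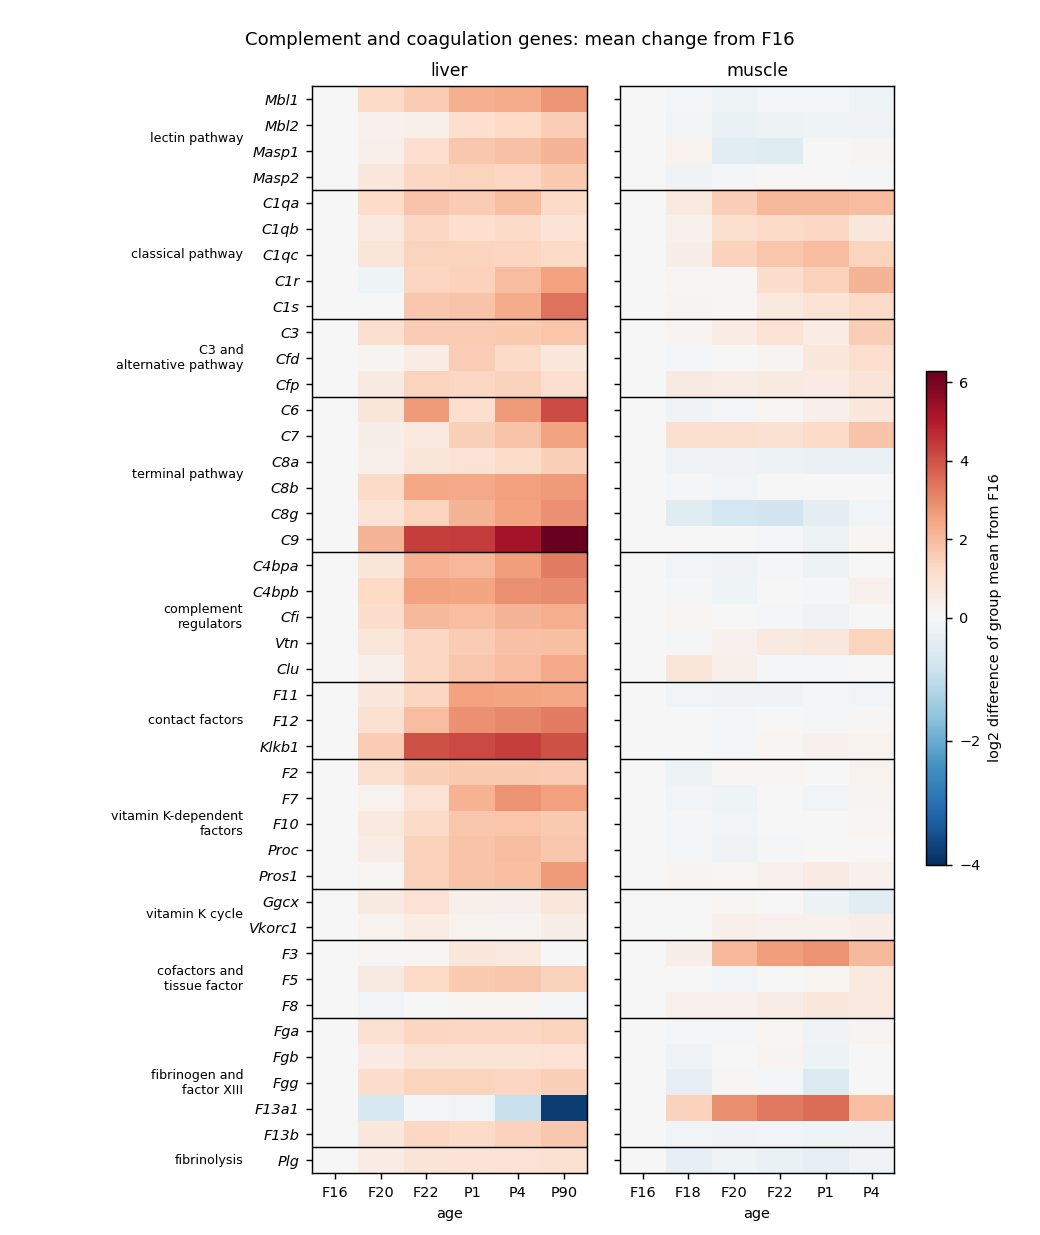
Change of the group mean from F16 (log2, colour) for the 42 members in rows, ordered by class, at each age in columns, in liver (left, 4 arrays per age) and muscle (right, 5 arrays per age). Most liver rows turn red by F22, *C9* reaches the deepest red at P90, *F13a1* is the 1 row that turns deep blue, and in muscle *F13a1* and *F3* have the deepest red before P4.

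By the interval of the first rise of at least 1 log2 unit, 9 members rose first between F16 and F20 (*Mbl1*, *C1qa*, *C3*, *C8b*, *C9*, *C4bpb*, *Cfi*, *Klkb1* and *Fgg*), 6 between F20 and F22 (*C1r*, *C1s*, *C6*, *C4bpa*, *F12* and *Pros1*) and 3 between F22 and P1 (*Cfd*, *F11* and *F7*). The other 24 had no single interval with such a rise. First or not, such a rise was called for 9, 10 and 3 members in these 3 intervals. Of all 15310 probe sets it was called for 173, 318 and 309. With a least rise of 0.5, 25 members fell into the F16 to F20 interval, 9 into F20 to F22 and 3 into F22 to P1, and 5 had none, so that the size of each class depended on the rise asked for. The interval with the largest rise, called or not, was F16 to F20 for 17 members, F20 to F22 for 19 and F22 to P1 for 6, and after P1 for none of the 42. The 0.5 rule and the largest rise were not counted over all probe sets.

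Promoter sequence was available in the RefSeq table (GRCr8, 250 bases before to 50 after the gene start) for 35 of the 46 members, and 3 motifs of liver transcription factors were searched there on both strands. The HNF1 motif GTTAATNAT was found in 5 members (14.3% of 35, against 0.747% of all 33469 windows), the C/EBP motif TTGCNNAA in 12 (34.3% against 10.6%) and the HNF4 motif CAAAGTCC in 0 (1.4% of all windows). A match describes the letters of a window and is neither a site nor a cause. The stretches below are 30 bases in the direction of the gene with the motif in capitals, shown for genes whose liver values are described in the next paragraphs: the 4 measured members with the HNF1 motif, 4 others with the C/EBP motif that rose before birth, and *F13a1*, which was lower at P90 than at F16.
C4bpa, HNF1, chr13:44663528-44663557: tgcttcgtctGTTAATCATccaccgggacg
Fga, HNF1, chr2:170672104-170672133: gacaagggtgATGATTAACctagtttcctg
F13b, HNF1, chr13:53681567-53681596: agatgtggtaATTATTAACttgttttgtca
Plg, HNF1, chr1:50915457-50915486: ggcccagacaATGATTAACctcatcagact
C3, C/EBP, chr9:2201425-2201454: aggaaaccacgTTGCGAAAtctggggcagc
C6, C/EBP, chr2:55573446-55573475: gcagcaagagcTTTTGCAAcaaccctgaat
Klkb1, C/EBP, chr16:53691007-53691036: cccatggattcTTCTGCAAagggatgcgtg
Fgb, C/EBP, chr2:170700998-170701027: ctgggaagatgTTGCTCAAatgataaaacg
F13a1, C/EBP, chr17:28021163-28021192: ttctggtcactTTGCCTAAgtccttttgag
The genes with a motif did not follow a single course: *Fga*, *Fgb* and *Plg* levelled off by F22, *C4bpa* and *C6* were still higher at P90 than at P4, and *F13a1* was lower at P90 than at any other age.

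Of the lectin pathway, 4 of 4 members rose from F16 to P90. *Mbl1*, mannose-binding lectin A, had 9.26, 9.62, 9.21 and 9.02 at F16, 10.56, 10.48, 10.35 and 10.53 at F20 and 12.07, 12.04, 12.04 and 12.04 at P90. The F20 arrays all lay above the F16 arrays (change 1.20 ± 0.10 SE, adjusted p = 9.2e-09 in limma), and smaller rises followed at F22 (0.39), at P1 (0.63) and at P90 (0.41). *Mbl2*, the second lectin, was not called before birth and rose between F22 and P1 by 0.72 ± 0.18 (adjusted p = 0.0021). Its P1 arrays were 11.10, 12.16, 12.23 and 12.05, so that replicate 1 lay within the F22 arrays (10.69 to 11.37) and the other 3 above them, and without the 4 liver arrays high in muscle fibre markers the rise was 0.53 (adjusted p = 0.059). *Masp1*, a protease bound to the lectins, rose in 4 intervals, by 0.32, 0.76, 0.61 and, from P4 to P90, 0.32, and *Masp2*, the protease that cleaves C4 and C2, rose by 0.64 in both intervals before birth and by 0.37 from P4 to P90.

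The classical pathway split into the C1q chains and the C1 proteases. *C1qa*, *C1qb* and *C1qc*, which encode the 3 chains of the recognition molecule C1q, rose in both intervals before birth, by 1.14, 0.59 and 0.75 and then by 0.66, 0.72 and 0.67. *C1qa* had 8.47, 8.49, 8.51 and 8.32 at F16, 10.41, 10.17, 10.28 and 10.14 at F22, 10.24, 10.13, 10.77 and 10.23 at P4 and 9.603, 9.69, 9.62 and 9.68 at P90. The adult arrays lay below all F22 and P4 arrays and above all F16 arrays, and *C1qa* and *C1qb* fell between P4 and P90 (by 0.69 ± 0.10, adjusted p = 4.8e-06, and by 0.35 ± 0.11, adjusted p = 0.010), while *C1qc* changed by -0.16 (adjusted p = 0.24).

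The 13 measured macrophage and Kupffer cell markers took a similar course up to P4: 13 of 13 rose between F16 and F20 and again between F20 and F22, and 7 fell and 3 rose between P4 and P90. Their mean over the arrays lay at 7.62 to 7.81 at F16, 8.53 to 8.73 at F20, 9.53 to 9.66 at F22, 9.39 to 10.01 at P4 and 9.597 to 9.82 at P90. At F16, 6 markers lay below the liver median (*Marco*, *Clec4f*, *Cd5l*, *Cd163*, *Vsig4* and *Mpeg1*), and at F22 0 did. Their part in the result was not tested.

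*C1r* and *C1s*, the proteases of the C1 complex, did not pass the test between F16 and F20 (changes of -0.18 and 0.03) and rose between F20 and F22 by 1.55 ± 0.11 (adjusted p = 7.2e-10) and 1.69 ± 0.14 (adjusted p = 3.1e-09). *C1s* had 8.48, 8.91, 8.62 and 8.70 at F20, 10.48, 10.01, 10.09 and 10.90 at F22, 11.07, 10.93, 11.09 and 10.86 at P4 and 12.04, 12.11, 12.05 and 12.11 at P90. The F22 arrays lay above all F20 arrays, F22 replicate 4 lay within the range of P4, and the P90 arrays lay above all others. From F22 to P1 *C1s* was not called (0.08, adjusted p = 0.69), but without the 4 liver arrays high in muscle fibre markers it rose by 0.40 (adjusted p = 0.0088). The P90 mean was 10.7-fold that of F16. From P4 to P90 *C1s* rose by 1.09 ± 0.14 (adjusted p = 5.1e-07) and *C1r* by 0.61 ± 0.11 (adjusted p = 9.0e-05), in the same interval in which *C1qa* and *C1qb* fell.

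*C3*, on which all pathways converge, passed no interval from F22 on. Its arrays read 12.01, 11.97, 11.81 and 11.96 at F16, 12.98, 12.97, 12.85 and 12.96 at F20, 13.52, 13.51, 13.52 and 13.58 at F22 and 13.65, 13.65, 13.67 and 13.68 at P90. The steps were 1.01 ± 0.05 (adjusted p = 3.2e-13) and 0.59 ± 0.05 (adjusted p = 2.4e-09), and the 3 later intervals gave 0.01, 0.04 and 0.07, none of which passed. These values lie near the top of the liver range (14.11).

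*Cfd*, the serine protease factor D of the alternative pathway, which is also known as adipsin, had its largest change at birth: 8.57, 7.93, 8.16 and 7.72 at P1, against 7.05, 7.01, 7.04 and 6.96 at F22 (1.08 ± 0.12, adjusted p = 1.9e-07). All 4 P1 arrays lay above all 4 F22 arrays. It fell from P4 to P90 by 0.55 ± 0.12 (adjusted p = 0.00053), with 7.24, 7.32, 7.19 and 7.23 at P90. Of the 8 measured adipocyte markers, 2 rose and 0 fell between F22 and P1, with a mean of 7.21 to 7.28 at P1 and 6.91 to 6.999 at F22. Between P4 and P90, where *Cfd* fell, 3 of these markers rose and 2 fell. Their mean was 7.24 to 7.30 at P4 and 7.33 to 7.40 at P90. *Adipoq*, *Plin1*, *Lep* and *Pparg* stayed below the liver median at F22 and P1, and the part of these markers in the result was not tested. *Cfp*, properdin, which stabilises the alternative convertase and is made by myeloid cells, rose before birth by 0.56 and 0.85 and fell from P4 to P90 by 0.41 ± 0.08 (adjusted p = 0.00019). Of the 10 measured neutrophil and monocyte markers, 8 rose from F16 to F20, 10 rose from F20 to F22 and 8 fell from P4 to P90. Their mean lay at 7.41 to 7.74 at F16, 9.81 to 10.41 at F22, 9.80 to 9.96 at P4 and 7.05 to 7.18 at P90, with *Prtn3*, *S100a8* and *Ltf* below the liver median at F16 and 6 of them below it at P90. Their part in the course of *Cfp* was not tested.

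The terminal pathway held the steepest member. *C9*, whose protein polymerises into the pore of the membrane attack complex, had 7.04, 7.16, 7.05 and 6.79 at F16, 9.18, 9.01, 8.92 and 9.44 at F20, 11.13, 11.13, 11.03 and 12.19 at F22, 10.40, 11.83, 11.95 and 11.40 at P1, 12.28, 12.23, 12.28 and 12.24 at P4 and 13.20, 13.26, 13.21 and 13.18 at P90. Each age up to F22 lay above the one before without overlap, F22 and P1 overlapped, and P4 and P90 stood above all earlier arrays. The change from F16 to P90 was 6.20 ± 0.25 (adjusted p = 1.4e-16) and was the largest of the 42 members. The F16 arrays of *C9* lay close to the array medians of liver, so no fold is given. The rise from P1 to P4 (0.86 ± 0.25, adjusted p = 0.025) was 0.53 without P1 replicate 1 (adjusted p = 0.067) and 0.86 to 0.87 without P4 replicate 2, 3 or 4 (adjusted p of 0.052 to 0.055).

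**Figure D3:**
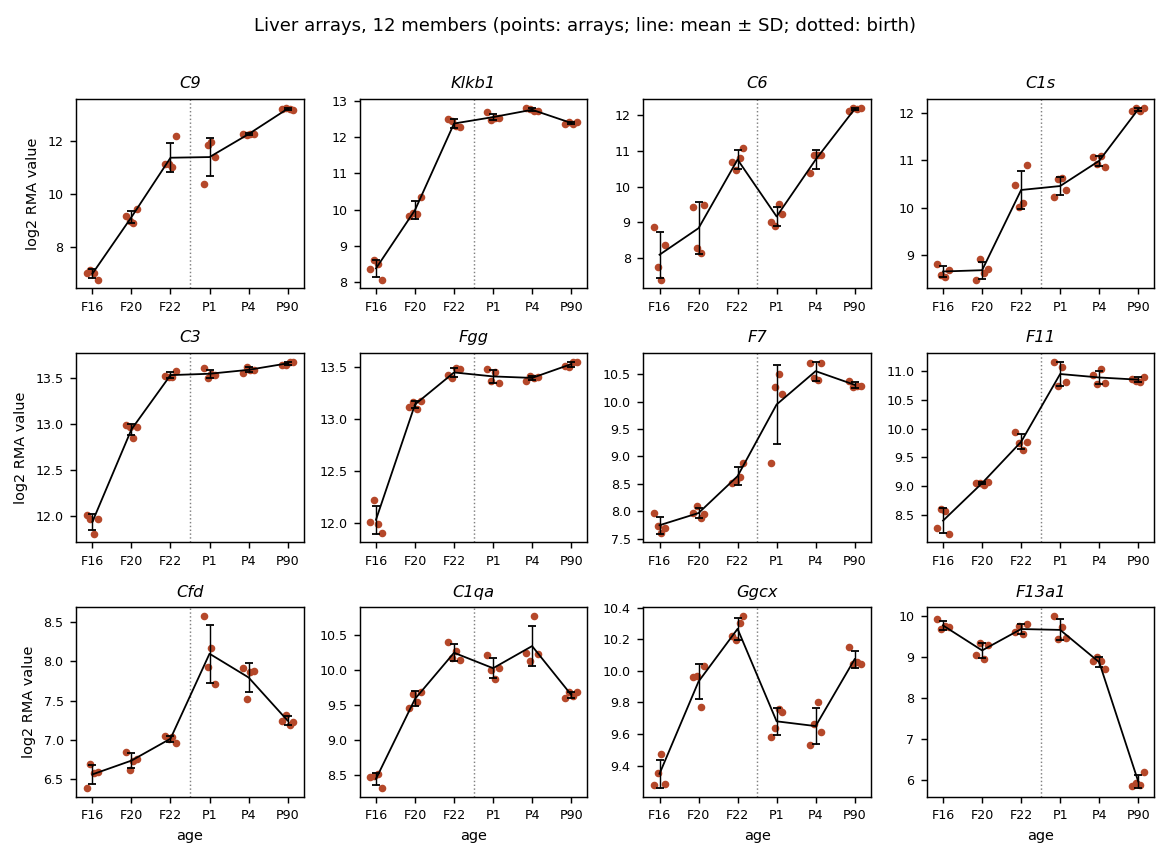
Log2 RMA value of 12 members on each of the 24 liver arrays (points, 4 per age), with the group mean and SD (line and bars), against age from F16 to P90. The dotted line marks birth, *C6* dips at P1, *F7*, *F11* and *Cfd* step up there, *C3* and *Fgg* are level from F22 and *F13a1* drops to 5.96 at P90.

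*C6*, which joins C5b to start the complex, was the 1 member with a fall at birth of more than 1 log2 unit. It had 10.68, 10.46, 10.81 and 11.09 at F22, 9.01, 8.90, 9.51 and 9.23 at P1, 10.37, 10.88, 10.90 and 10.88 at P4 and 12.13, 12.22, 12.18 and 12.20 at P90. The 4 P1 arrays lay below all arrays of F22 and P4, with a fall of 1.60 ± 0.28 (adjusted p = 8.1e-05) and a rise of 1.60 ± 0.28 after it (adjusted p = 0.00067). The arrays spread from 8.12 to 9.49 at F20 and from 7.39 to 8.86 at F16, and that step was not called (0.75 ± 0.28, adjusted p = 0.063), although it was called without F16 replicate 1 (1.00), F20 replicate 2 (0.93) or F20 replicate 3 (0.98).

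*C8a*, *C8b* and *C8g* encode the 3 chains of C8 and differed in their steps. *C8b* rose by 1.23 ± 0.08 and 1.19 ± 0.08 before birth (adjusted p = 8.7e-11 and 1.5e-10) and was not called later. *C8g* rose in each of the 5 intervals, by 0.86, 0.56, 0.70, 0.42 and 0.34. *C8a* rose by 0.34 and 0.41 before birth and by 0.36 from P4 to P90. Its change from P1 to P4 (0.23) passed the test without the 4 liver arrays high in muscle fibre markers (adjusted p = 0.047, against 0.070 with them). Whether the courses of the 3 chains differ was not tested. *C7*, which anchors the complex to the membrane, passed no single interval and rose from F16 to P90 by 2.56 ± 0.40 (adjusted p = 4.4e-06). Its highest group mean was 7.93, at P90. Its F16 mean and its P1 arrays other than replicate 2 lay below the array medians of liver, so no fold is given. Its P1 arrays were 5.998, 8.83, 5.999 and 6.59, and without replicate 2 the steps from P1 to P4 (0.95, adjusted p = 0.0081) and from P4 to P90 (0.78, adjusted p = 0.0029) passed. Without P1 replicate 1 or 3 it was the step from F22 to P1 that passed (1.16 in both cases, adjusted p = 0.027 and 0.031).

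All 5 complement regulators rose in both intervals before birth, by 0.32 to 1.27 and by 0.58 to 1.40. *C4bpa*, the alpha chain of C4b-binding protein, had 10.06, 10.21, 9.90 and 9.77 at F16, 10.71, 10.74, 10.74 and 10.82 at F20, 12.12, 12.07, 11.96 and 12.46 at F22 and 13.21, 13.23, 13.17 and 13.24 at P90, without overlap between these ages. Its partner chain *C4bpb* rose by 1.27 ± 0.08 in both intervals before birth (adjusted p = 3.7e-11 and 3.6e-11), and *Cfi*, the protease factor I that cuts C3b and C4b, by 1.13 and 0.91. *Vtn* (vitronectin) and *Clu* (clusterin), which bind the nascent complex, rose at birth as well, by 0.31 ± 0.07 (adjusted p = 0.0011) and 0.38 ± 0.08 (adjusted p = 0.00079).

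The complement and the clotting genes were also counted apart after birth. Between P1 and P4 all 9 members that rose were complement genes (*C1r*, *C1s*, *C6*, *C8g*, *C9*, *C4bpa*, *C4bpb*, *Cfi* and *Clu*, of 23), with a median change of 0.23 over the 23, against 0 of the 19 genes of coagulation and fibrinolysis, with a median of 0.01 (4.87% of all probe sets rose). Between P4 and P90, 11 complement genes rose and 4 fell (median 0.32), against 6 and 5 of the clotting genes (median -0.02). Of all probe sets, 28.8% rose and 27.1% fell in that interval. Between F22 and P1 it was 7 and 1 against 8 and 2, beside 14.8% and 21.9% of all probe sets. The difference between the cascades was not tested, and with a trended, robust prior in limma 12 complement and 2 clotting genes rose between P1 and P4, and with weak probe sets left out 12 and 3. The share of all probe sets that rose under these 2 settings is not given here. In the main fit *Cfi* and *Clu* stood at adjusted p of 0.047 and 0.045 between P1 and P4, and each missed the threshold when any of several arrays was left out. *Clu* missed it there without the 4 liver arrays high in muscle fibre markers too (adjusted p = 0.060), and also lost its call from F16 to F20 without them (0.24, adjusted p = 0.12, against a change of 0.32 with them).

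All 3 contact factors rose in both intervals before birth. *Klkb1*, plasma prekallikrein, which activates factor XII and frees bradykinin, had 8.36, 8.599, 8.49 and 8.08 at F16, 9.83, 9.91, 9.87 and 10.34 at F20, 12.50, 12.43, 12.29 and 12.26 at F22, 12.81, 12.77, 12.71 and 12.71 at P4 and 12.37, 12.40, 12.36 and 12.41 at P90. Both steps before birth were without overlap (1.61 ± 0.10, adjusted p = 5.1e-11, and 2.38 ± 0.10, adjusted p = 4.2e-14), and the adult arrays lay below those of P4 (change -0.36, adjusted p = 0.0040). *F12*, factor XII, rose by 0.94, 1.02 and 0.92 in the 3 intervals up to P1 and *F11*, factor XI, by 0.65, 0.72 and 1.18. *F11* had 11.16, 10.75, 11.08 and 10.82 at P1, against 9.94, 9.74, 9.62 and 9.77 at F22 (1.18 ± 0.10, adjusted p = 1.9e-09), and its later changes were -0.06 and -0.04.

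The vitamin K-dependent factors are carboxylated on glutamate residues before secretion. *F2* (prothrombin) rose by 0.99 and 0.49 before birth and was not called in a later interval, *F10* (factor X) by 0.60, 0.61 and 0.48 up to P1, and *Proc* (protein C, an anticoagulant) by 0.48, 0.96 and 0.34, before a fall of 0.26 ± 0.06 from P4 to P90 (adjusted p = 0.00052). *Pros1*, the cofactor protein S, was not called between F16 and F20 (0.07) and rose by 1.39 ± 0.06 between F20 and F22 (adjusted p = 1.4e-13) and by 0.77 ± 0.06 from P4 to P90 (adjusted p = 3.3e-10). It had 11.74, 11.80, 11.70 and 11.83 at P90, against 10.998, 11.06, 11.01 and 10.91 at P4. *Proc* and *Pros1*, a protease and its cofactor, thus moved in opposite directions between P4 and P90.

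*F7*, factor VII, which starts clotting with tissue factor, was the latest of these. It had 8.88, 10.26, 10.50 and 10.14 at P1, against 8.52, 8.55, 8.62 and 8.88 at F22 (1.31 ± 0.21, adjusted p = 2.1e-05). P1 replicate 1 lay level with the highest F22 array, and the other 3 were more than 1 log2 unit above all F22 arrays. The P4 arrays (10.70, 10.43, 10.39 and 10.71) were close to those 3. The small rise of *F7* before birth, from F20 to F22 (0.67, adjusted p = 0.013), was 0.61 without the 4 liver arrays high in muscle fibre markers (adjusted p = 0.14).

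The 2 genes of the vitamin K cycle took another course than the factors their enzymes serve. *Ggcx*, the gamma-glutamyl carboxylase, had 10.22, 10.19, 10.30 and 10.35 at F22, 9.58, 9.64, 9.76 and 9.74 at P1, 9.53, 9.66, 9.80 and 9.61 at P4 and 10.15, 10.04, 10.06 and 10.04 at P90. All P1 and P4 arrays lay below all F22 and P90 arrays, with a fall at birth of 0.59 ± 0.07 (adjusted p = 2.6e-07) and a rise of 0.42 ± 0.07 from P4 to P90 (adjusted p = 1.1e-05). *Vkorc1*, the epoxide reductase that warfarin blocks, fell at birth by 0.25 ± 0.05 (adjusted p = 0.00038) and rose by 0.22 ± 0.05 from P4 to P90 (adjusted p = 0.0010), and both had risen in the 2 intervals before birth. With *C6* they make up the 3 members that fell between F22 and P1, the interval in which *F7*, *F10*, *Proc* and *Pros1* rose.

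Of the cofactors, *F5* (factor V) followed the proteases, with rises of 0.59, 0.68 and 0.38 up to P1 and a fall of 0.24 ± 0.07 from P4 to P90 (adjusted p = 0.0077). *F8* (factor VIII), which is made chiefly by endothelium, passed no interval in liver, with group means between 7.55 and 7.79. *F3*, tissue factor, had 7.08, 8.51, 7.49 and 7.596 at P1, against 7.05, 7.05, 7.32 and 7.10 at F22, and 7.10, 7.09, 7.06 and 6.81 at P90. The rise at birth (0.54 ± 0.19, adjusted p = 0.024) was 0.26 without P1 replicate 2 (adjusted p = 0.11). It was 0.52 without F22 replicate 1 or 2 (adjusted p of 0.054 and 0.056) and 0.49 without the 4 liver arrays high in muscle fibre markers (adjusted p = 0.15). From P4 to P90 *F3* fell by 0.63 ± 0.19 (adjusted p = 0.0065).

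The 3 fibrinogen chains changed little from F22 on. *Fgg*, the gamma chain, had 12.01, 12.22, 11.99 and 11.90 at F16, 13.12, 13.17, 13.10 and 13.18 at F20, 13.43, 13.40, 13.49 and 13.48 at F22 and 13.51, 13.50, 13.55 and 13.55 at P90, and rose by 1.11 ± 0.05 and 0.31 ± 0.05 before birth (adjusted p = 7.4e-13 and 8.8e-05). *Fga* rose by 0.98 and 0.36 and *Fgb* by 0.54 and 0.34 in the same intervals, and no change of the 3 chains from F22 to P1 or from P1 to P4 was larger than 0.04 in size. From P4 to P90 *Fgg* rose by 0.13 (adjusted p = 0.044), a call that was lost without the 4 liver arrays high in muscle fibre markers (adjusted p = 0.052) and when any of several single arrays was left out (adjusted p up to 0.094), while *Fga* (0.09) and *Fgb* (0.05) were not called. *Plg*, plasminogen, the precursor of the protease that dissolves fibrin, took the same steps with 0.46 and 0.34, and was not called later. As for *C3*, the fibrinogen values lie near the top of the range.

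The subunits of factor XIII went opposite ways. *F13b*, the carrier B subunit of hepatocytes, rose from F16 to P90 by 1.72 ± 0.09 (adjusted p = 1.2e-14), while *F13a1*, the catalytic A subunit, fell by 3.81 ± 0.11 (adjusted p = 5.6e-19), the 1 member called as lower at P90 than at F16. The change of *F13b* from P1 to P4 (0.25, adjusted p = 0.064) passed the test without the 4 liver arrays high in muscle fibre markers (adjusted p = 0.044). *F13a1* had 9.91, 9.67, 9.75 and 9.73 at F16, 9.04, 9.35, 8.95 and 9.29 at F20, 9.598, 9.76, 9.57 and 9.79 at F22, 9.999, 9.44, 9.72 and 9.47 at P1, 8.90, 9.001, 8.89 and 8.70 at P4 and 5.85, 5.92, 5.86 and 6.19 at P90. It fell by 0.61 from F16 to F20 (adjusted p = 0.00033 in limma) and rose by 0.52 from F20 to F22 (adjusted p = 0.00065). The falls after birth were 0.79 from P1 to P4 and 2.92 from P4 to P90 (adjusted p = 7.3e-05 and 3.4e-16). The adult arrays lay more than 2 log2 units below every other liver array. They also lay below the array medians of liver, so no fold is given.

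The 6 measured megakaryocyte and platelet markers also fell between P4 and P90, 6 of 6. Their mean was 9.92 to 10.13 at F16, 9.11 to 9.52 at F20, 9.56 to 9.87 at F22, 9.52 to 10.06 at P1, 9.24 to 9.48 at P4 and 7.37 to 7.55 at P90. At P90 *Pf4*, *Gp1ba*, *Gp5* and *Ppbp* lay below the liver median. Of the 13 macrophage and Kupffer cell markers, 7 fell and 3 rose between P4 and P90, and 13 rose from F16 to P90. The part of both sets of markers in the fall of *F13a1* was not tested.

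In muscle 20 members were called higher and 1 lower at P4 than at F16, against 26.7% and 35% of all probe sets, with a median of 0.18 for the members and -0.04 for all. The highest group mean of 23 of the 42 members stayed below the muscle median, among them *C9*, *Klkb1* and the fibrinogen chains, whereas no member was as low in liver. Called rises and falls by interval were 9 and 1 from F16 to F18 (14.1% and 19.3% of all), 6 and 3 from F18 to F20 (14.6% and 15.9%). They were 4 and 1 from F20 to F22 (6.02% and 13.8%), 6 and 1 from F22 to P1 (9.5% and 8.82%) and 13 and 6 from P1 to P4 (19.2% and 14.7%). Except for the rises from F16 to P4, from F16 to F18, from F20 to F22, from F22 to P1 and from P1 to P4, the shares of members were below those of all probe sets, and no interval showed the share of rises seen in foetal liver.

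Without the 9 muscle arrays high in hepatocyte markers, 17 members rose and 1 fell from F16 to P4, and *C4bpb*, *F7* and *Masp1* were no longer called. From F20 to F22 9 members then rose, against 4 with all arrays, and from F18 to F20 1 fell, against 3. The shares of all probe sets without the 9 arrays are not given here. *Fgg* had 6.002, 5.97, 6.04, 7.67 and 8.47 at F20 and 7.73, 7.21, 5.84, 7.08 and 6.03 at F16, and the arrays above 7 at both ages are among these 9. *C3*, *Cfi*, *F10*, *Fga*, *Fgb* and *Plg* were also higher on each of the 9 than on any other array of the same age, and *F2* was except on P4 replicate 5 (7.19, against up to 7.37). Of these genes *C3* rose in muscle between P1 and P4 (1.11 ± 0.28, adjusted p = 0.0030), and the others were not called in any interval. Without the 9 arrays *C3* also rose from F20 to F22 (0.70, adjusted p = 0.016) and *Cfi* from F16 to F18 (0.21, adjusted p = 0.030). The part of the hepatocyte markers in these values was not tested.

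**Figure D4:**
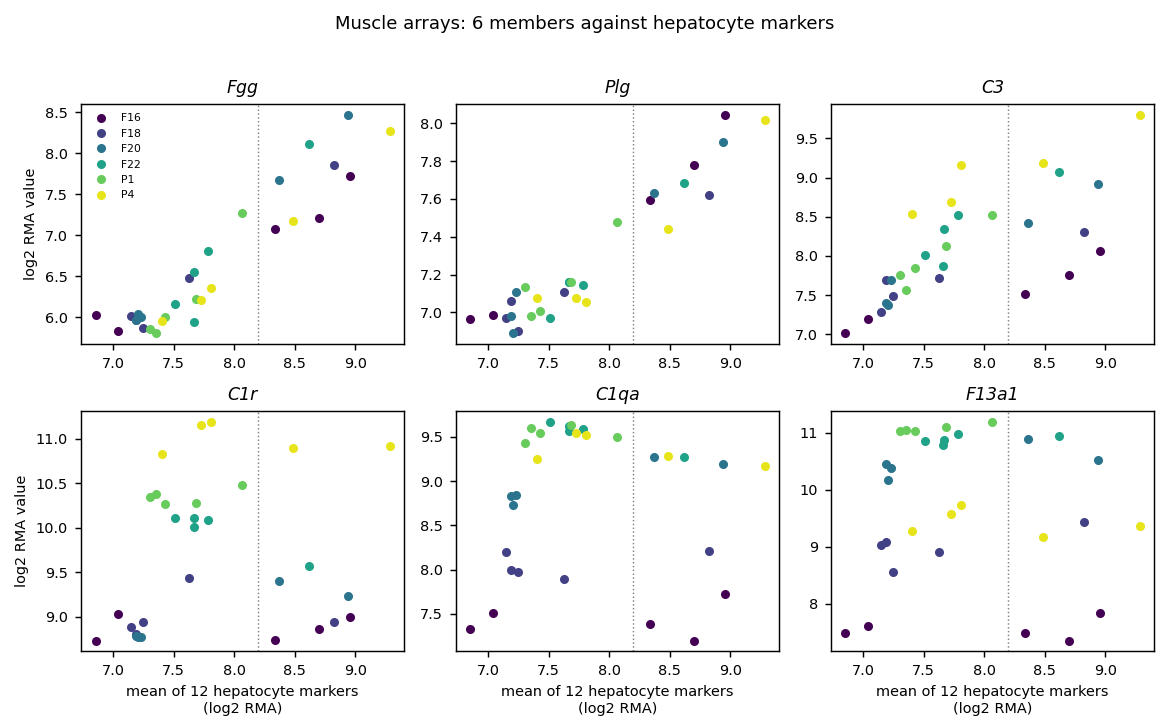
Log2 RMA value of 6 members on the 30 muscle arrays (points, coloured by age) against the mean of the 12 hepatocyte markers on the same array (log2). The dotted line at 8.2 divides the 9 arrays high in these markers from the other 21. *Fgg* and *Plg* are higher on each of those 9 arrays than on the other arrays of its age, while *C1r*, *C1qa* and *F13a1* differ by age on both sides of the line.

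The members that rose in muscle from F16 to P4 by at least 1 log2 unit were *C1r*, *F3*, *C1qa*, *F13a1*, *C7*, *C3*, *C1qc*, *Vtn*, *C1s* and *Cfd*, 10 in all. By the same rule 1065 of all 15310 probe sets rose. *C1r* rose by 2.12 ± 0.12 (adjusted p = 9.0e-15), and had 11.16, 11.19, 10.91, 10.83 and 10.89 at P4, against 9.002, 8.87, 9.04, 8.75 and 8.74 at F16. *C3* had 8.68, 9.16, 9.80, 8.54 and 9.19 at P4, against 8.07, 7.76, 7.20, 7.52 and 7.01 at F16 (1.56 ± 0.28, adjusted p = 1.9e-05, and 1.69 without the 9 arrays). The groups did not overlap for either gene.

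*F13a1* rose in muscle through foetal life and fell after birth. It had 7.84, 7.36, 7.61, 7.48 and 7.49 at F16, 9.04, 8.91, 8.56, 9.44 and 9.09 at F18, 10.39, 10.46, 10.17, 10.90 and 10.52 at F20, 11.04, 11.20, 11.04, 11.06 and 11.11 at P1 and 9.57, 9.74, 9.37, 9.28 and 9.18 at P4. These 5 ages were free of overlap except that F18 and P4 shared a range, and the fall from P1 to P4 was 1.66 ± 0.13 (adjusted p = 4.0e-11). The mean of the macrophage markers on these arrays was 7.48 to 7.68 at F16, 7.96 to 8.12 at F18, 8.06 to 8.44 at F20, 8.41 to 8.54 at P1 and 8.56 to 8.74 at P4. *Marco*, *Clec4f*, *Cd5l*, *Vsig4* and *Mpeg1* lay below the muscle median at each of these ages. The 6 megakaryocyte and platelet markers averaged 7.64 to 7.93 at F16, 7.99 to 8.24 at P1 and 8.51 to 8.89 at P4. From P1 to P4, the interval in which *F13a1* fell, 6 of 6 rose. The part of both sets of markers in the result was not tested.

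*F3* had 8.64, 8.597, 8.34, 8.58 and 8.36 at F18, 10.04, 10.03, 9.80, 10.61 and 10.74 at F20 and 11.08, 10.83, 11.51, 10.97 and 10.39 at P1 in muscle. The step from F18 to F20 was a rise of 1.74 ± 0.19 (adjusted p = 1.0e-07) without overlap, and *F3* fell by 0.79 ± 0.19 from P1 to P4 (adjusted p = 0.0019). *Cfd* rose in muscle by 0.47 ± 0.08 from F22 to P1 and by 0.40 ± 0.08 from P1 to P4 (adjusted p = 8.0e-05 and 0.00023). The adipocyte markers, of which 8 of 8 rose from F16 to P4, averaged 6.97 to 7.09 at F16, 7.50 to 8.19 at F22, 7.83 to 9.77 at P1 and 8.92 to 9.17 at P4, and their part in the rise of *Cfd* was not tested.

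The difference between the tissues was tested on the change itself. From F16 to P4 it was called for 35 of 42 members, 31 with the larger rise in liver and 4 with the larger rise in muscle, against 56.3% of all probe sets, and the median difference of the members was 1.37. The called differences were 27 from F16 to F20 (32.4% of all), 25 from F20 to F22 (25.6%), 13 from F22 to P1 (30%) and 9 from P1 to P4 (23.2%). Without the 4 liver arrays high in muscle fibre markers 8 were called from F22 to P1, and without the 9 muscle arrays 15 from P1 to P4. Shares of all probe sets without these arrays are not given here. With all arrays, the members' share was above the background in both foetal intervals and over the whole span from F16 to P4. *C9* had the largest, 5.25 ± 0.25 in liver and 0.09 ± 0.08 in muscle (difference 5.16 ± 0.27, adjusted p = 1.1e-19), followed by *Klkb1* (4.16 ± 0.20, adjusted p = 8.3e-21) and *F12* (2.96 ± 0.11, adjusted p = 8.7e-24).

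The 4 members with the larger rise in muscle were *F13a1* (-2.77 ± 0.16, adjusted p = 5.7e-18), *F3* (-1.40 ± 0.30, adjusted p = 0.00011), *F8* (-0.49 ± 0.10, adjusted p = 7.5e-05) and *Vkorc1* (-0.23 ± 0.08, adjusted p = 0.014). *F13a1* changed by -0.90 ± 0.11 in liver and by 1.87 ± 0.13 in muscle. *Ggcx* went the other way from *Vkorc1*, with a rise of 0.30 ± 0.07 in liver and a change of -0.43 ± 0.07 in muscle (difference 0.73 ± 0.10, adjusted p = 9.6e-08). No difference was called for *C1qa*, *C1qc*, *C1r*, *C3*, *C7*, *Cfd* and *Fgg*. For *C1qa* it was -0.03 ± 0.16, for *C1r* -0.17 ± 0.18 and for *C3* 0.09 ± 0.34, while *Fgg* missed the threshold at 1.35 ± 0.61 (adjusted p = 0.057) and passed it without the 9 muscle arrays (1.12, adjusted p = 0.0022). Without the 4 liver arrays high in muscle fibre markers the differences of *Fga*, *Fgb* and *Vtn* no longer passed (1.09, 0.80 and 0.39, with adjusted p = 0.091, 0.071 and 0.064).

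**Figure D5:**
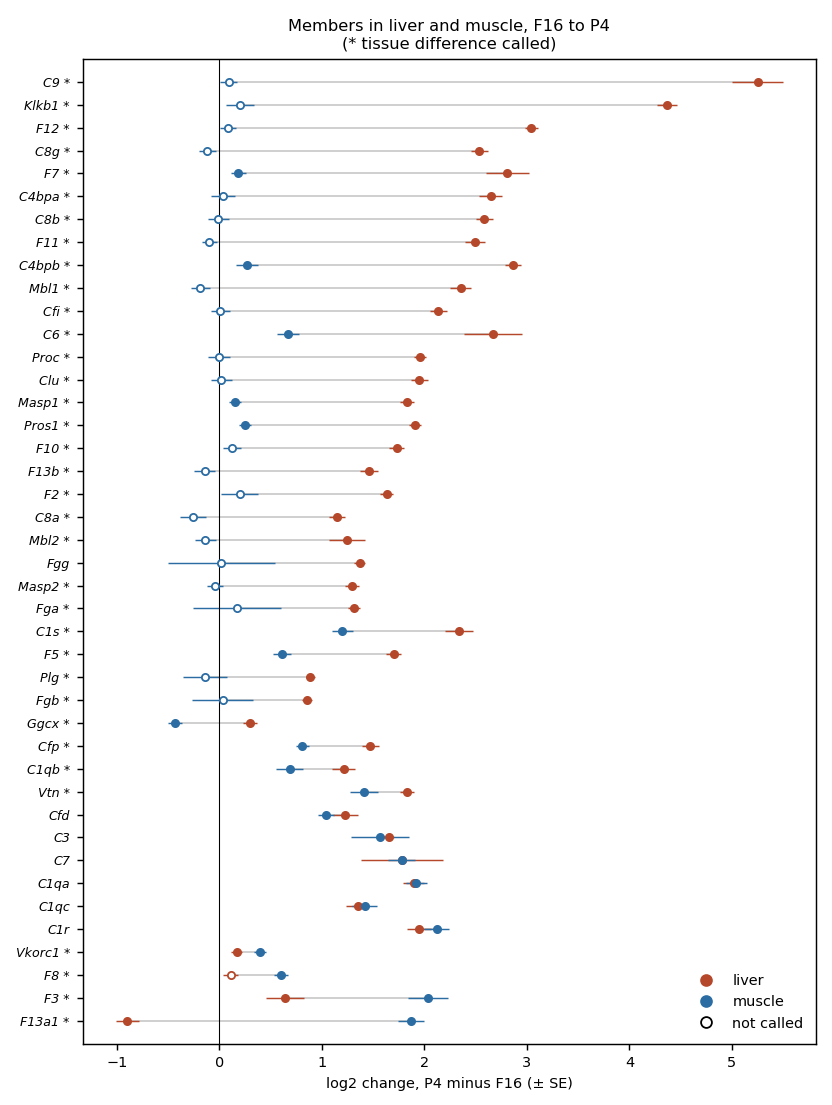
Log2 change from F16 to P4 of the 42 members in liver (red) and muscle (blue), with standard errors, ordered by the difference between the tissues. Open points were not called in their tissue and an asterisk marks a called difference between tissues. *C9*, *Klkb1* and *F12* at the top changed in liver, *F13a1* and *F3* at the bottom had the larger rise in muscle, and *C1qa*, *C1r*, *C3* and *C7* overlap.

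Related genes outside the 46 members were counted in the same way in liver from F16 to P90, where 37.9% of all probe sets rose and 35.5% fell. Of 33 measured genes of coagulation and fibrinolysis, 19 rose and 11 fell, with a median of 0.37, against 39 and 1 of the 42 members with a median of 1.71. *Fgl1*, a fibrinogen-like protein of hepatocytes, rose by 7.67 ± 0.17 (adjusted p = 1.8e-21) and *Gas6*, a vitamin K-dependent ligand, by 3.53 ± 0.16 (adjusted p = 1.5e-15), while *A2m*, the inhibitor alpha-2-macroglobulin, fell by 4.71 ± 0.07 (adjusted p = 5.5e-24) and *Anxa2* fell by 2.53 ± 0.18 (adjusted p = 7.4e-12). Of 22 complement regulators and receptors, 14 rose and 5 fell, with a median of 0.35, against 23 and 0 of the 23 complement members with a median of 2.30. *C1rl*, a relative of C1r, rose by 3.06 ± 0.10 (adjusted p = 1.5e-18) and *Serping1*, the C1 inhibitor, by 2.92 ± 0.11 (adjusted p = 4.0e-17), whereas the membrane regulator *Cd55* fell by 5.18 ± 0.14 (adjusted p = 1.7e-19) and *C1qbp* by 1.25 ± 0.07 (adjusted p = 2.3e-13). Of 18 acute phase genes, 17 rose and 1 fell, with a median of 3.96, from *Stat3* at 1.29 ± 0.09 to *Orm1* at 7.70 ± 0.19 (adjusted p = 5.6e-12 and 3.0e-20), and *A2m*, which is in this list as well, was the 1 that fell.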

How the data were processed

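Each probe set has a log2 value that the authors deposited, made from Rat Gene 1.0 ST arrays by robust multi-array average in Affymetrix Expression Console (background correction, quantile normalisation and median polish, version not given in the sources used here). Medians show that liver and muscle were normalised apart, so no level was compared between tissues or between probe sets. The number of arrays limits the precision, and since no source says which animals the arrays share, p-values measure the spread between arrays.

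Of 29214 probe sets, 15310 bear 1 gene symbol in the platform annotation, 323 several and 13581 none. Linear models (limma 3.58.1 in R 4.3.3) were fitted to 24 liver arrays, to 30 muscle arrays and to 45 arrays of both tissues at the shared ages for the difference in change, with Benjamini-Hochberg adjustment over the 15310 probe sets and a threshold of 0.05. Calls by fold use changes of log2 values. The fit was tested on simulated data. All members were named, and of each other list up to 4 genes with the highest and lowest changes in liver from F16 to P90. The members and lists were chosen with earlier results of these data known.

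Alternatives were renewed quantile normalisation, median centring, a trended robust prior, array weights, a replicate block, bright probe sets only, averaged probe sets, the unadjusted p of the methods, a least change of 1, fits without P90 or F18, and each array left out. Leaving out the 9 muscle arrays with hepatocyte markers of at least 8.2, and the 4 liver arrays with muscle fibre markers of at least 7.6, was chosen after seeing the data.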

Additional observations from a re-analysis of the deposited data

Results flagged for a closer look

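In 41 of 504 groups of arrays, each 1 member at 1 age in 1 tissue, the highest or lowest array lay farther from its nearest neighbour than Dixon's limit allows, and chance alone gives about 1 in 20 groups. Each is given as its log2 value, with the nearest other array of its group in parentheses. In liver, these arrays were as follows. F20 replicate 2 stood apart for *F12* at 9.82 (9.63). F20 replicate 3 stood apart for *C3* at 12.85 (12.96). F20 replicate 4 stood apart for *Klkb1* at 10.34 (9.91). F22 replicate 2 stood apart for *C1qb* at 10.25 (10.06). F22 replicate 4 stood apart for *C3* at 13.58 (13.52) and *C9* at 12.19 (11.13). P1 replicate 1 stood apart for *Mbl2* at 11.10 (12.05), *C1r* at 11.45 (11.83) and *Vtn* at 12.86 (12.999). P1 replicate 3 stood apart for *F12* at 11.48 (11.63). P4 replicate 1 stood apart for *C6* at 10.37 (10.88). P4 replicate 2 stood apart for *Cfd* at 7.52 (7.86). P4 replicate 3 stood apart for *Cfp* at 11.31 (10.98). P90 replicate 1 stood apart for *C8a* at 12.70 (12.75), *F7* at 10.38 (10.29) and *Ggcx* at 10.15 (10.06). P90 replicate 4 stood apart for *F3* at 6.81 (7.06). Of these liver arrays, F22 replicate 4 is among the 4 high in muscle fibre markers, whose part in the values was not tested.

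In muscle, these arrays were as follows. F16 replicate 1 stood apart for *C6* at 6.15 (5.91). F16 replicate 4 stood apart for *C9* at 5.90 (6.12). F18 replicate 2 stood apart for *C1r* at 9.43 (8.94). F18 replicate 4 stood apart for *C7* at 7.46 (7.91), *Vtn* at 7.89 (7.48), *F2* at 7.16 (6.79), *Vkorc1* at 12.71 (12.58), *F8* at 8.54 (8.78) and *Plg* at 7.62 (7.11). F20 replicate 4 stood apart for *F8* at 8.57 (8.76). F20 replicate 5 stood apart for *F11* at 5.71 (5.75). F22 replicate 2 stood apart for *C1qa* at 9.27 (9.56), *C1qc* at 9.58 (9.86), *C1r* at 9.57 (10.01), *Fga* at 7.86 (6.68) and *Plg* at 7.69 (7.16). F22 replicate 5 stood apart for *C8g* at 8.99 (8.73). P1 replicate 2 stood apart for *Fgg* at 7.27 (6.23). P1 replicate 4 stood apart for *F13b* at 6.06 (5.74). P4 replicate 3 stood apart for *C1qb* at 8.99 (9.48), *C8a* at 6.80 (6.37), *C4bpb* at 6.55 (5.98), *Cfi* at 6.11 (5.74) and *Ggcx* at 9.48 (9.74). Of these muscle arrays, F16 replicates 1 and 4, F18 replicate 4, F20 replicates 4 and 5, F22 replicate 2 and P4 replicate 3 are among the 9 high in hepatocyte markers, whose part in the values was not tested. P1 replicate 2 is not among the 9, but its hepatocyte marker mean (8.06) and its *Alb* (10.87) were the highest of the other 21.

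The change from F16 to P4 differed between liver and muscle, by limma's test of the difference itself, for 35 of 42 members, against 56.3% of all probe sets. As liver minus muscle on the log2 scale, the 31 members with the larger change in liver were led by *C9* 5.16, *Klkb1* 4.16, *F12* 2.96, *C8g* 2.66, *F7* 2.62, *C4bpa* 2.61, *C8b* 2.59 and *F11* 2.59. Smaller differences followed for *C4bpb* 2.59, *Mbl1* 2.54, *Cfi* 2.13, *C6* 2.001, *Proc* 1.96, *Clu* 1.93, *Masp1* 1.68 and *Pros1* 1.66, then for *F10* 1.60, *F13b* 1.60, *F2* 1.43, *C8a* 1.40, *Mbl2* 1.38, *Masp2* 1.33, *Fga* 1.14 and *C1s* 1.14, and the smallest were *F5* 1.09, *Plg* 1.03, *Fgb* 0.83, *Ggcx* 0.73, *Cfp* 0.66, *C1qb* 0.52 and *Vtn* 0.42. The calls for *Fga*, *Fgb*, *C1qb* and *Vtn* were close to the threshold (adjusted p = 0.048, 0.038, 0.018 and 0.028), and each was lost when any of several single arrays was left out, with adjusted p up to 0.11, 0.084, 0.094 and 0.068. The 4 larger changes in muscle were *F13a1* -2.77, *F3* -1.40, *F8* -0.49 and *Vkorc1* -0.23.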

How the results depend on the processing

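No alternative reversed a called change. Except for the least change of 1, the counts in this section stand without the share of all probe sets under the same alternative. They describe the members alone and do not show whether the other probe sets moved as much. Asking for a change of at least 1 left these members rising and falling in liver: 9 and 0 from F16 to F20, 10 from F20 to F22, 3 and 1 from F22 to P1, 1 and 0 from P1 to P4, 2 and 1 from P4 to P90, with 0 falling from F16 to P4. In muscle it left 1 and 0 from F16 to F18, 3 and 0 from F18 to F20, 0 and 0 from F20 to F22, 0 and 0 from F22 to P1, 1 and 1 from P1 to P4 and 10 and 0 from F16 to P4, and of the tissue differences 9, 9, 3 and 2 in the 4 intervals. Of all 15310 probe sets it left 173, 318, 309, 25 and 524 rising in the liver intervals in order. Those falling in liver were 41, 45, 170, 46 and 810. In the muscle intervals it left 159, 218, 60, 39 and 140 rising and 33, 31, 15, 26 and 47 falling. A rise of any size gave an onset to 40 members (31 from F16 to F20), and a rise of 0.5 to 37 (25 from F16 to F20), against 18 and 9 at a rise of 1. The unadjusted p gave 5 falling from F22 to P1 and 18 rising and 2 falling from P1 to P4 in liver, and in muscle 10 rising from F20 to F22 and 3 falling from F16 to P4. Bright probe sets gave 15 rising from P1 to P4 in liver and 8 in muscle, and tissue differences of 9, 10 and 5 up to P1 and 13 from F16 to P4, where weak members were not tested. The trended robust prior gave 14 rising from P1 to P4 in liver.

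In muscle, array weights gave 14 rising and 2 falling from F20 to F22, 5 falling from F18 to F20 and 3 falling from F16 to P4. Median centring gave 3 falling from F16 to P4 and 0 from F22 to P1, and renewed quantile normalisation 2 falling from F16 to P4 and 9 rising from F20 to F22. Without 4 muscle arrays that earlier work found apart, 11 rose from F20 to F22 and 3 fell from F16 to P4. Without the 9 muscle arrays high in hepatocyte markers, 9 rose from F20 to F22, 1 fell from F18 to F20 and 15 tissue differences were called from P1 to P4. Without the 4 liver arrays high in muscle fibre markers, 8 tissue differences were called from F22 to P1. The cause of these differences was not tested.

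Leaving out each array in turn gave these ranges. In liver, the members that rose numbered 31 to 32 from F16 to F20, 37 to 38 from F20 to F22, 14 to 17 from F22 to P1, 6 to 12 from P1 to P4, 14 to 18 from P4 to P90, 40 from F16 to P4, 39 from F16 to P90, and those that fell 1 from F16 to F20, 0 from F20 to F22, 3 to 5 from F22 to P1, 1 to 2 from P1 to P4, 9 to 10 from P4 to P90, 1 from F16 to P4, 1 from F16 to P90. In muscle, those that rose numbered 8 to 10 from F16 to F18, 6 to 7 from F18 to F20, 3 to 7 from F20 to F22, 4 to 6 from F22 to P1, 12 to 15 from P1 to P4, 17 to 20 from F16 to P4, and those that fell 1 from F16 to F18, 2 to 3 from F18 to F20, 1 from F20 to F22, 0 to 1 from F22 to P1, 6 from P1 to P4, 1 to 5 from F16 to P4. The tissue differences numbered 24 to 29 from F16 to F20, 23 to 26 from F20 to F22, 9 to 13 from F22 to P1, 9 to 11 from P1 to P4, 32 to 36 from F16 to P4. Onsets numbered 8 to 10 from F16 to F20, 5 to 7 from F20 to F22, 3 to 4 from F22 to P1, 0 from P1 to P4, 0 from P4 to P90, and 17 to 19 in any interval. The F-test in liver called 41 to 42 members.

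Deviations of same-numbered arrays had a mean correlation of 0.0017 in liver and -0.017 in muscle, against -0.00055 and 0.0043 for other numbers. Of the same-numbered pairs, 6 of 60 and 16 of 75 were above 0.1. In liver 10 of 24 arrays and in muscle 6 of 30 correlated best with their own number. How many would do so by chance was not worked out. With the number as a replicate block, 746 of 756 member changes kept their call, 9 lost it and 1 gained it. The number of arrays sets what could be called: standard errors of the liver changes were 0.05 for *C3* and 0.40 for *C7*, so that small changes of *C7* were not detectable. For the 23 members below the median in muscle, signal limits what a change can show.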
